A study of Mus musculus with 2 samples.

Results

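Of the 6629 p300 peaks listed for the mouse neocortex at embryonic day 14.5, 1270 lay inside protein-coding genes shorter than 200 kb. A peak was placed in a gene when its midpoint fell between the ends of the gene, and it was kept when every protein-coding gene holding the midpoint spanned under 200 kb. These 1270 peaks made up 19.2% of the list, with an exact Clopper-Pearson 95% interval of 18.2 to 20.1% that, like all the intervals given here, covers counting error only. A further 1561 peaks (23.5%) had midpoints in a protein-coding gene of 200 kb or more, and 3798 (57.3%) lay outside protein-coding genes, of which 187 were inside an annotated noncoding gene and 3611 in no annotated gene.

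Chromatin came from the dorsal cerebral wall of Swiss Webster embryos, trimmed of the cortical hem, hippocampus and choroid plexus and fixed with formaldehyde. It was immunoprecipitated with the C-20 antibody against p300, and the peaks were called against input chromatin of the same tissue. There was 1 p300 library and 1 input library, so no value has a replicate and no test between samples was possible. The peak list, on the mm9 assembly, gives positions alone, with no score or read count, so the depth behind a single peak is unknown and its width is the only measure of size. The input library was not analysed here.

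p300 is a histone acetyltransferase and co-activator that is brought to DNA by transcription factors, and its binding away from promoters is widely used to find active enhancers. Many enhancers lie in introns, some acting on the gene that holds them and some on a neighbour, so the host of a peak is a position and not a target. In the neocortex at this age, radial glia divide along the ventricle, intermediate progenitors divide above them, and newborn projection neurons settle in the cortical plate.

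Several short strings that neural transcription factors bind were more frequent at the midpoints of these peaks than in their host genes. So was a promoter string taken as a contrast, while some of the neural strings were not. The 9 windows shown come from genes among those with the most peaks, 1 peak from each gene, taken as the one whose middle 200 bases held the most different strings. They are therefore examples chosen for their strings, given to show what such a window looks like. Each is 200 bases of the NCBIM37 assembly (mm9), read 5′ to 3′ on the + strand. Capitals mark every match, on either strand, to 13 strings: the proneural E-box CATCTG, the common E-box CAGCTG, the repressor E-box CAGGTG, the homeodomain core TAATTA, the Nfi site TTGGCA, the Nfi dimer (TGGC and GCCA with 5 bases of any kind between them), the Rfx site GTTNCCA, the Sox string ACAATG, the Pou octamer ATGCAAAT, the T-box string GGTGTGA, the AP-1 string TGANTCA, the Meis string TGACAG and the GC box GGGCGG. A match describes the letters and is not evidence that a factor was bound.
Macrod1 (chr19:7157625-7157824, + strand): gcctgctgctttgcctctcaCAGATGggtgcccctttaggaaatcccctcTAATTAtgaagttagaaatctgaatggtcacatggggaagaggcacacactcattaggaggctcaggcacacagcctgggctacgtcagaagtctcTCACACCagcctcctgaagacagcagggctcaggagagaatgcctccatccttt
Slit1 (chr19:41762887-41763086, + strand): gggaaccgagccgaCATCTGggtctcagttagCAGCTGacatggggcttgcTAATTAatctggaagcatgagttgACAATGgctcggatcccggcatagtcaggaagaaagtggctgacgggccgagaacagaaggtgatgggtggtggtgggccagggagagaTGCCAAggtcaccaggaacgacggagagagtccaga
Trak1 (chr9:121307884-121308083, + strand): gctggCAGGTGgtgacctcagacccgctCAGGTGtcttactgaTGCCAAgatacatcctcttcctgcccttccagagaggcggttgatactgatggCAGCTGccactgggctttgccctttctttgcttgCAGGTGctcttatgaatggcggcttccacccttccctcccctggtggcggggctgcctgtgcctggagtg
Med27 (chr2:29241045-29241244, + strand): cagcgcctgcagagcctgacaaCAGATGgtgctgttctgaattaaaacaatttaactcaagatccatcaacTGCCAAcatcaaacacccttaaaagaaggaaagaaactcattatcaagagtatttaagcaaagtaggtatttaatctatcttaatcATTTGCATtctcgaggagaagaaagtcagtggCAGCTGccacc
Sfxn5 (chr6:85215072-85215271, + strand): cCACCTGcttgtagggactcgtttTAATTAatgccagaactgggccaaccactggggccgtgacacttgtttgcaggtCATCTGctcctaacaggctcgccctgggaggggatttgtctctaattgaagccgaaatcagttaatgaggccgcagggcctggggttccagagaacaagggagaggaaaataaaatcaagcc
Ebf3 (chr7:144442206-144442405, + strand): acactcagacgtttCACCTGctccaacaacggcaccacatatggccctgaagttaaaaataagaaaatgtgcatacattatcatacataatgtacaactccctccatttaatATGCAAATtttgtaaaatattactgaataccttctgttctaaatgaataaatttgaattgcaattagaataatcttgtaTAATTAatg
Prex1 (chr2:166462453-166462652, + strand): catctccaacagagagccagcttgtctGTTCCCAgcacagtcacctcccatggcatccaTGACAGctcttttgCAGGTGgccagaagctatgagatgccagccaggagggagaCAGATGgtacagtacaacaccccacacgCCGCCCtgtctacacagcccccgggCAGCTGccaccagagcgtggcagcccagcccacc
Cux2 (chr5:122398817-122399016, + strand): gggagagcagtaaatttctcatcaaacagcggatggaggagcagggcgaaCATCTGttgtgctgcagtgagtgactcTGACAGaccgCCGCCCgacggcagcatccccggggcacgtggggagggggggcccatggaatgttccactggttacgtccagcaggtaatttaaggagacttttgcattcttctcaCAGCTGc
Sez6 (chr11:77771902-77772101, + strand): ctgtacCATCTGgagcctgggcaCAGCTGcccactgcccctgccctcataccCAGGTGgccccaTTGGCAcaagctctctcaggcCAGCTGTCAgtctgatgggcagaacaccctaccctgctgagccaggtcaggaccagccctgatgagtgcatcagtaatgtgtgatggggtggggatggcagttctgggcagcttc

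The window from Slit1, which encodes a secreted axon repellent, held 5 of the strings, namely both the proneural and the common E-box and the homeodomain, Sox and Nfi strings, within intron 4 of the gene. That from Prex1, a guanine nucleotide exchange factor for Rac, held 6, the most among the 9. The window from Sez6, a membrane protein of cortical neurons, carried an E-box and a Meis string joined in a single run. By contrast the window from Macrod1, an ADP-ribosyl hydrolase, held 3 strings spread over its length.

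Over all 1270 peaks, CATCTG was the most frequent string, present in the middle 200 bases of 494 peaks (38.9%, interval 36.2 to 41.6%). It is the E-box bound by proneural factors of the Neurog and Neurod families. Of the 6629 peaks of the whole list, 36.4% held it, and of the 337354 tiles of 200 bases cut from the bodies of the host genes, 15.6% did. The share in the peaks was 2.5 times that in the host genes around them. CAGCTG, an E-box shared by many bHLH factors, was found in 26.9% of the peaks (24.4 to 29.4%), in 23.5% of all peaks of the list and in 9.15% of tiles, a ratio of 2.94. CAGGTG, the E-box of the Zeb and Snail repressors, was found in 15.0% of the peaks, in 14.1% of all peaks and in 13.7% of tiles, a ratio of 1.10, with the tile share inside the interval of the peaks (13.1 to 17.1%). Of the E-boxes, CATCTG and CAGCTG thus stood above the level of their host genes and CAGGTG did not.

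Strings of the Nfi family, whose members act in radial glia and in glial differentiation, were next. TTGGCA stood in 23.8% of the peaks (21.5 to 26.2%), in 23.8% of all peaks and in 9.96% of tiles. The dimer was rare, in 44 peaks (3.46%, interval 2.53 to 4.62%), against 2.67% of all peaks and 0.402% of tiles, and its ratio of 8.61 was the highest of the 13 strings. The homeodomain core TAATTA, which Lhx2 and Emx factors can bind, was found in 14.9% of the peaks (13 to 17%), in 17.5% of all peaks and in 6.12% of tiles. Here the peaks in genes of 200 kb or more stood at 19.5% (17.5 to 21.5%), and those outside protein-coding genes at 17.6%. The octamer ATGCAAAT of the Pou family was found in 2.52% of the peaks (1.73 to 3.54%), in 3.65% of all peaks and in 1.26% of tiles.

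Of the remaining strings, TGACAG was present in 23.2% of the peaks, in 23.4% of all peaks and in 14.1% of tiles. GTTNCCA was present in 15.4% of the peaks, in 14.7% of all peaks and in 10.8% of tiles. GGTGTGA, read by T-box factors such as Tbr1 and Eomes, was present in 4.65% of the peaks, in 4.30% of all peaks and in 2.84% of tiles. The intervals of the remaining pair held the tile share, with ACAATG in 11.0% of the peaks (9.35 to 12.9%), 12.3% of all peaks and 10.8% of tiles, and TGANTCA in 6.30% of the peaks (5.03 to 7.78%), 6.50% of all peaks and 5.98% of tiles. GGGCGG, a promoter string taken as a contrast, was present in 6.93% of the peaks (5.59 to 8.47%), in 5.94% of all peaks, in 2.61% of tiles (a ratio of 2.65) and in 3.72% of the peaks in genes of 200 kb or more.

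**Figure D1:**
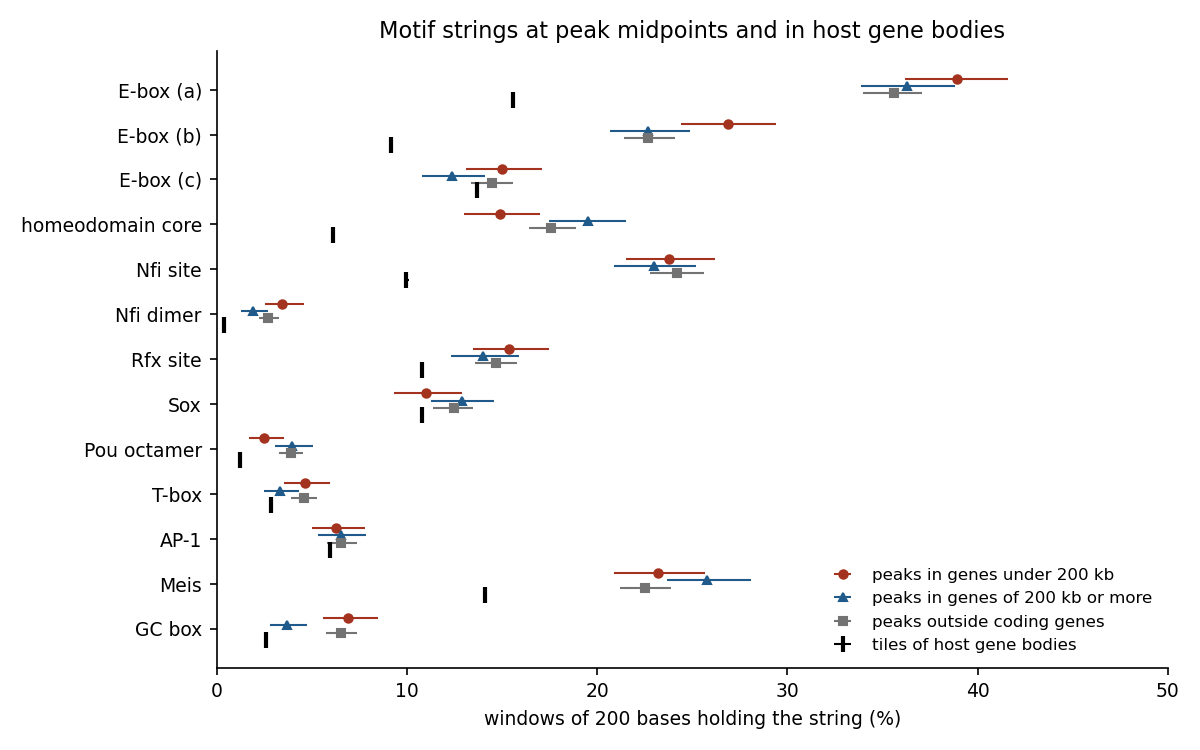
Share of 200-base windows (horizontal axis, percent) holding each of 13 strings, for the 1270 peaks in genes under 200 kb (circles), the peaks in genes of 200 kb or more (triangles), the peaks outside protein-coding genes (squares) and 337354 tiles of the host gene bodies (bars), with exact 95% intervals; E-box (a) is CATCTG, E-box (b) is CAGCTG and E-box (c) is CAGGTG. E-box (a) stands at 38.9% of peaks against 15.6% of tiles, while E-box (c), Sox and AP-1 lie at the tile share.

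Base composition differed between the classes and bears on such shares. GC content averaged 49.5% (SD over peaks 8.12) in the middle 200 bases of the 1270 peaks, against 45.8% in the peaks of genes of 200 kb or more, 47.1% outside protein-coding genes and 44.5% over the tiles. When windows of 45 to 55% GC alone were counted, a choice made after these values were seen, 582 peaks and 150525 tiles were left. CATCTG was then in 45.7% of peaks and 17.6% of tiles, a ratio of 2.60, and CAGCTG had a ratio of 2.31. TTGGCA and the Nfi dimer kept ratios of 2.5 and 9.39, and TAATTA and ATGCAAAT had ratios of 4.09 and 4.02. The ratio of CAGGTG moved to 0.878 and that of GGGCGG to 1.26.

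The strings gathered at the midpoints. Within 100 bases of the midpoint there were 25.5 matches to CATCTG per 100 peaks and 100 bases, against 9.23 at 1 to 2 kb on either side. The same ratio of middle to flank was 2.87 for CAGCTG, 3.11 for TAATTA, 2.57 for TTGGCA and 8.06 for the Nfi dimer. It was 1.24 for CAGGTG, 1.19 for ACAATG and 1.11 for TGANTCA. For GGGCGG, the contrast string, it was 2.13. For ATGCAAAT it was 2.45, for GGTGTGA 1.85, for TGACAG 1.71 and for GTTNCCA 1.45. The flanks were not matched to the middles for GC content. The Nfi dimer was thus the highest against the flanks of the peaks as well as against the tiles of their genes.

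**Figure D2:**
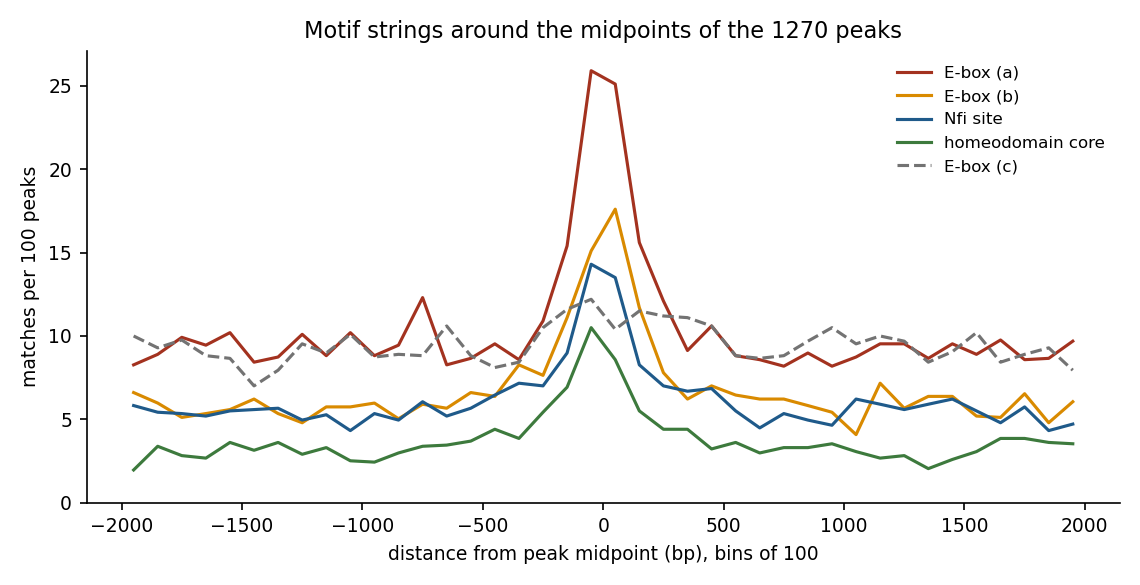
Matches per 100 peaks (vertical axis) in bins of 100 bases up to 2 kb either side of the midpoints (horizontal axis, bp) of the 1270 peaks for 5 strings; E-box (a) is CATCTG, E-box (b) is CAGCTG and E-box (c) is CAGGTG. E-box (a) reaches 25.9 and 25.1 in the bins on either side of the midpoint, while E-box (c) stands at 12.2 and 10.4 there.

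Most peaks held at least 1 of the strings. Leaving out the GC box, 151 peaks (11.9%) held none of the other 12 strings and 343 (27.0%) held 3 or more, whereas 35.6% of tiles held none and 7.55% held 3 or more. Over all 6629 peaks the same shares were 13.3 and 27.0%. The pair found together most often was CATCTG with CAGCTG, in 125 peaks (9.84%) and in 1.48% of tiles. CATCTG stood with TGACAG in 123 peaks (9.69%; 2.65% of tiles) and with TTGGCA in 119 (9.37%; 1.61% of tiles). Each string of these pairs was by itself more frequent in the peaks than in the tiles, which alone raises the share of peaks with both. Whether any pair was found together more often than its single shares would give was not tested. Matches can share bases, and in 27 peaks a CATCTG overlapped a TGACAG, in 30 a CAGCTG overlapped a TGACAG, and in 14 a TTGGCA overlapped a GTTNCCA.

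The peaks were spread thinly over short genes. They lay in 900 of the 21413 protein-coding genes under 200 kb, which is 4.20% (3.94 to 4.48%). 667 of these hosts held 1 peak, 151 held 2, 48 held 3, 23 held 4 and 11 held at least 5, up to 9. The 233 hosts with 2 or more (25.9%) held 605 of the peaks. 56 hosts carried only model or clone names. 6 of the peaks lay in 2 overlapping protein-coding genes at once. The median host spanned 90.5 kb, against 14.3 kb for all genes under 200 kb.

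The share of genes holding a peak rose with gene span. It was 0.0677% of the 8861 genes under 10 kb, 1.18% from 10 to 25 kb, 3.66% from 25 to 50 kb, 12.4% from 50 to 100 kb, 23.8% from 100 to 150 kb and 36.2% (31.8 to 40.8%) from 150 to 200 kb. Longer genes offer more sequence, but the number of peaks per Mb of gene body rose as well, from 0.175 under 10 kb to 1.25 from 25 to 50 kb and 3.57 (exact Poisson interval 3.16 to 4.01) from 150 to 200 kb. These classes divide by summed gene spans, so overlapping genes count more than once. Genes nested in a gene of 200 kb or more are counted, though they could not hold one of these peaks. Over all gene bodies under 200 kb, with overlaps merged and stretches inside longer genes left out, the density was 2.14 peaks per Mb of 592 Mb (2.03 to 2.27). In the bodies of genes of 200 kb or more it was 3.91, outside protein-coding genes 2.42, and over the whole assembly 2.59. The study had removed peaks near exons and start sites, and these take up more of a short gene; their part in the slope was not tested.

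**Figure D3:**
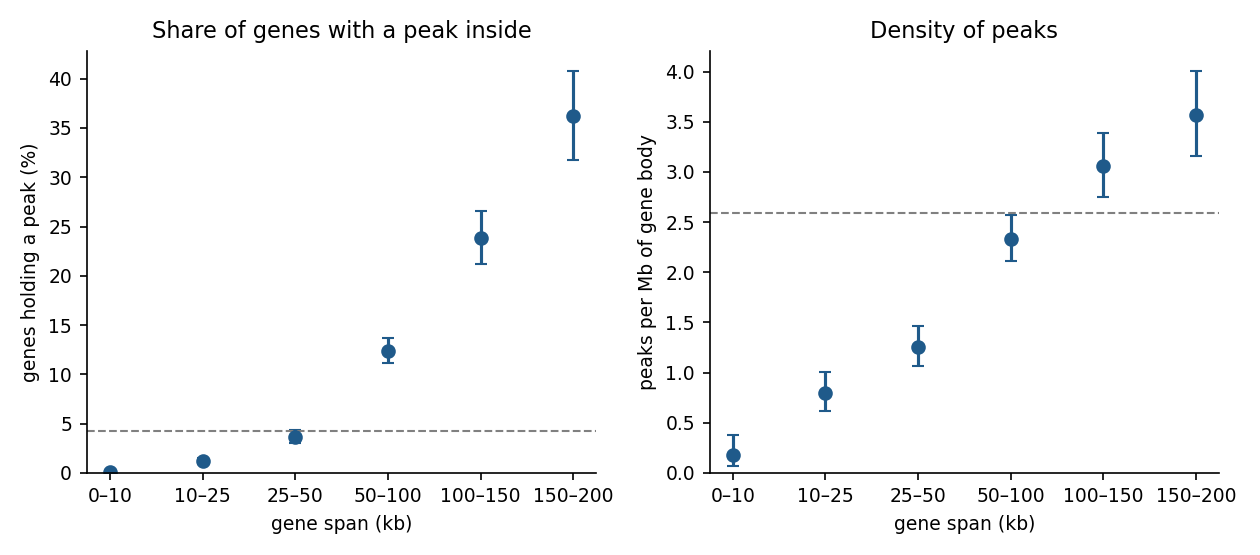
Left, share of protein-coding genes holding a peak (percent), and right, peaks per Mb of gene body, by gene span in kb, with exact 95% intervals; the dashed lines are 4.20% (all genes under 200 kb) and 2.59 peaks per Mb (whole assembly). Both measures rise in every step, to 36.2% and 3.57 per Mb at 150 to 200 kb. The densities by span divide by summed gene spans, and the dashed line by assembled bases.

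Hosts stood close to the limit of 200 kb on both sides. Just below it, Zfhx4 (197.3 kb) held 3 peaks, Kank1 (197.5 kb), Ccdc85a (198.6 kb) and Svil (198.8 kb) held 1 each, and Efcab6 (198.7 kb) held 2. Just above it, Pbx3 (201.7 kb) held 7, Meis2 (202.8 kb) 5, Gsg1l (204.0 kb) 2, Nr6a1 (204.3 kb) 1 and Med13l (204.7 kb) 3. At the other end, the named hosts under 10 kb were Tff3 (4.34 kb), Sncb (7.74 kb), which encodes beta-synuclein, and Hist2h2bb (9.28 kb), each with 1 peak; they were looked up after the values were seen.

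By chromosome, the density ran from 1.44 to 2.83 peaks per Mb of eligible gene body on the autosomes, lowest on chromosome 14 and highest on chromosome 4. On the X chromosome it was 0.615 per Mb (0.344 to 1.01), with 15 peaks in 24.4 Mb, against 2.21 per Mb (2.09 to 2.34) over the autosomes. All peaks of the list were sparse there too, with 76 in 162 Mb (0.469 per Mb). Of those 15, 2 lay 26.3 and 30.9 kb into Dcx, which encodes doublecortin, a microtubule protein of migrating neurons, both in intron 3.

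Most of the peaks were intronic, which largely follows from the rule and from the study's removal of peaks overlapped by exons. Introns were numbered on the transcript with the longest coding sequence, and 1203 of the midpoints (94.7%) lay in an intron of it, 7 in an exon and 60 inside the gene but beyond the ends of that transcript. 62 peaks (4.88%) overlapped an exon of some GENCODE transcript and 123 (9.69%) had midpoints within 2.5 kb of a GENCODE start, although the study had removed such peaks by its own gene set. 394 of the intronic peaks (32.8%, 30.1 to 35.5%) were in intron 1, 231 (19.2%) in intron 2 and 154 (12.8%) in intron 3. Intron 1 made up 28.8% of the hosts' intronic bases beyond 2.5 kb from any start. In the genes of 200 kb or more the same pair of values was 22.6% (20.5 to 24.9%) of peaks and 22.9% of bases. The introns that held a peak were long, with a median of 24.1 kb against 1.90 kb for all introns of the hosts. The first median counts peaks and the second counts introns. Longer introns offer more bases, so this gap by itself shows no preference for them. The longest intron of its gene held 670 of the peaks (55.7%, 52.8 to 58.5%) and 47.4% of the bases. 181 (15.0%) lay before the start codon.

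Along the gene, the peaks were fewer at both ends. When the gene body was cut into 5 equal stretches from 5′ to 3′, these held 16.6, 23.2, 24.0, 21.7 and 14.5% of the peaks. Of the bases outside exons and beyond 2.5 kb from any start they held 18.7, 21.4, 21.4, 20.8 and 17.7%. The peaks were not filtered by these GENCODE exons and starts. The last stretch, with an interval of 12.6 to 16.5%, was below its share of bases. The median distance from the start of the host transcript was 37.7 kb (35.2 to 40.8 kb from order statistics), with quartiles of 16.9 and 71.9 kb. 170 peaks (13.4%) were within 10 kb of it and 147 (11.6%) over 100 kb away. The host's start was the nearest protein-coding start for 989 (77.9%, 75.5 to 80.1%), and for the other 281 the nearest start belonged to another gene. Each peak lies inside its host by the rule, which favours the host's start. No such share for other positions in the hosts stands beside these values.

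**Figure D4:**
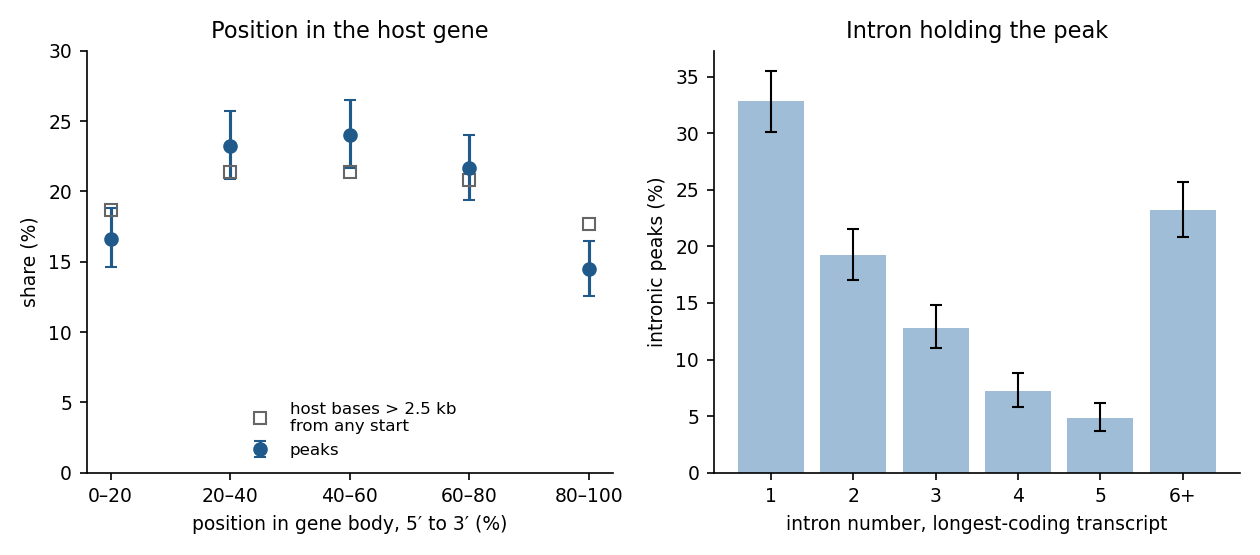
Left, share of the 1270 peaks (circles, exact 95% intervals) and of host bases (squares) in each of 5 equal stretches of the gene body. Bases in exons or within 2.5 kb of any start are left out. Right, share of the 1203 intronic peaks by intron number (bars, exact 95% intervals). The last stretch holds 14.5% of peaks and 17.7% of bases, and intron 1 holds 32.8% of intronic peaks.

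Peaks that shared a gene could lie no farther apart than its span, which was under 200 kb. Between the 376 neighbouring pairs within a gene the median distance was 14.8 kb, 201 pairs (53.5%) were in the same intron and 90 (23.9%) were under 5 kb apart. Counting all peaks of the list as possible neighbours, 641 of the 1270 (50.5%, 47.7 to 53.3%) had another within 50 kb. The share was 50.1% over all peaks, 55.6% in genes of 200 kb or more and 47.7% outside protein-coding genes. Within 5 kb, 13.5% of the 1270 had another, against 12.1% of all peaks.

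The peaks were about as wide as the rest of the list. Their median width was 992 bp (979 to 1014 bp), with quartiles of 851 and 1222 bp, against 1030 bp in genes of 200 kb or more, 1018 bp outside protein-coding genes and 1017 bp over all peaks. They ranged from 394 bp in Osbpl10 to 4023 bp in BC052040. Next in width among named genes came a peak of 3919 bp in intron 1 of Zfhx4, a zinc-finger homeodomain factor, 1 of 3471 bp in intron 1 of Kif21a, a kinesin, and 1 of 2831 bp in Cdk12, a kinase of RNA polymerase II. Width can reflect signal or several sites that were merged, and the list does not tell these apart.

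Macrod1, on chromosome 19, held 9 peaks in 141 kb, the most of any gene under 200 kb. All 9 were in its intron 3, which is 119 kb long and has Flrt1, a gene for a neuronal adhesion protein, within it. They ran from 11.5 to 126 kb past the Macrod1 start, and 5 of them had the Flrt1 start as the nearest start of another gene, 15.3 to 42.9 kb away. Their widths ran from 716 to 1946 bp.

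Slit1, Trak1 and Med27 held 7 peaks each. In Slit1 they formed a pair in intron 1, at 5.19 and 8.76 kb, a group of 4 between 46.1 and 58.1 kb in intron 4, and a single peak at 125 kb. In Trak1, which links mitochondria to kinesin in axons, 4 were in the 66.2 kb of intron 1. In Med27, a Mediator subunit, 6 of the 7 were more than 100 kb from the start, the farthest at 173 kb in intron 6. The peaks of these 3 genes thus had no common place along the gene.

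Sfxn5, Ebf3, Prex1 and Cux2 held 6 each. Sfxn5 encodes a mitochondrial carrier, and 4 of its peaks had Emx1 as the nearest other gene, with 3 of them in the last intron. Ebf3, a helix-loop-helix factor of early-born neurons, had 3 peaks in its 71.5 kb intron 6, the widest of 2040 bp. In Prex1, 4 of the 6 were in intron 1, between 22.0 and 60.2 kb. In Cux2, a homeodomain factor of upper-layer neurons and their progenitors, the 3 peaks nearest the start stood at 73.2, 81.1 and 101 kb in intron 2, which is 119 kb long, and the others at 145, 147 and 160 kb. Each of the 6 Cux2 windows held at least 3 of the strings, and 5 of them held a CATCTG.

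Sez6 and Alpk1 held 5 each. Sez6, which shapes dendrites, spans 48.2 kb, and its peaks fell between 20.3 and 35.0 kb. The last was 2166 bp wide and held none of the strings. In Alpk1, a kinase of innate immune sensing, 2 peaks were in intron 1 and 3 in intron 3. The latter had Neurog2 as the nearest other gene. Nfic, a member of the Nfi family, held 4 in 34.8 kb.

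**Figure D5:**
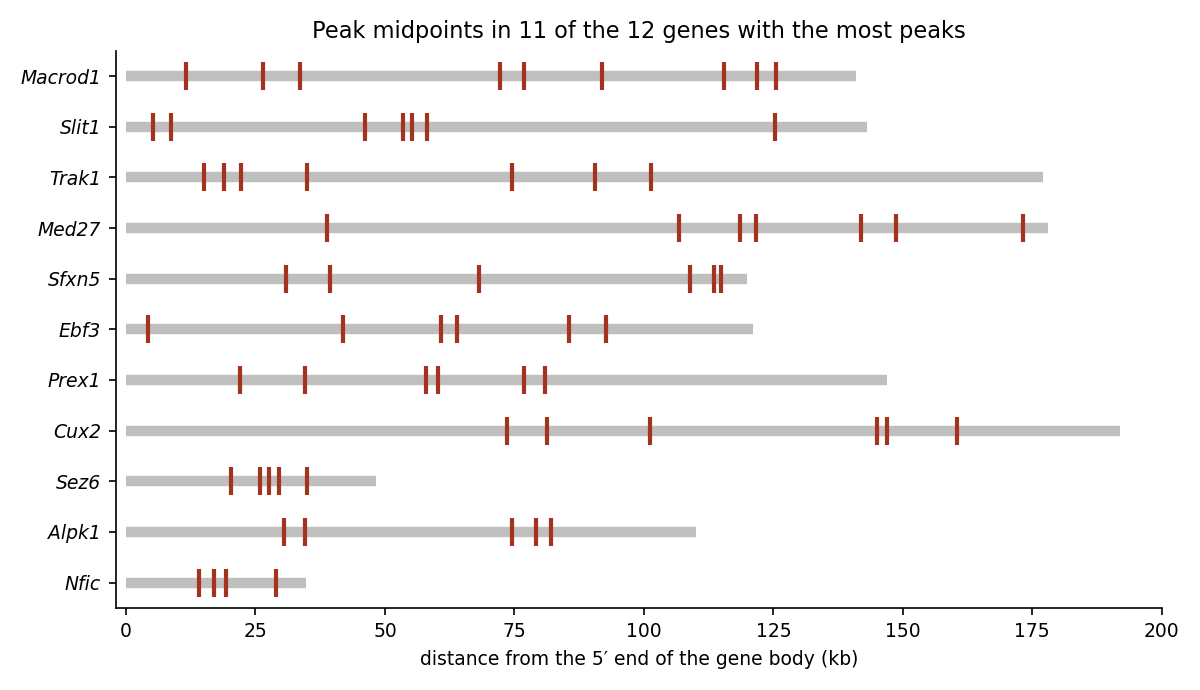
Midpoints of the peaks (vertical marks) along the bodies (grey) of 11 of the 12 genes with the most peaks, drawn to scale with the 5′ end at 0 kb (horizontal axis, kb). The 9 marks in Macrod1 span most of the gene, and those of Cux2 lie beyond its 5′ part.

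Ranked by peaks per length among hosts with at least 3, Foxo6, a forkhead factor of the developing forebrain, came first with 14.8 per 100 kb, from 3 peaks at 4.39, 6.02 and 9.87 kb in its intron 1. Nfic followed with 11.5 and Sez6 with 10.4. Cntfr, the receptor for ciliary neurotrophic factor, had 10.1, with peaks at 12.3, 14.9, 15.7 and 24.5 kb. Tle3, a Groucho co-repressor, had 8.68, with peaks at 4.74, 7.56, 23.4 and 31.8 kb, the last 2194 bp wide. Rhbdl3, a rhomboid-like membrane protein, had 7.27, Foxp4, a forkhead factor, 6.95, and Bahcc1, a chromatin protein with a BAH domain, 6.74. Counts of 3 or 4 per gene leave such densities imprecise, and their order is not established by these data.

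Gene lists were read against the 4.20% of all genes under 200 kb that held a peak. The lists were chosen with earlier results of these data known, so their counts are not independent of those results. Because hosts are long, each list was also set beside the number of hosts it would have if its genes held peaks at the shares of their span classes. Among neocortical transcription factors, 7 of 33 held peaks, where the span classes gave 2.20. They included Cux2 with 6, Nfix with 3, Bcl11b with 2, and Etv1, Lmo4 and Mef2c with 1 each. In Bcl11b, a factor of subcerebral neurons also called Ctip2, the pair stood at 71.8 and 75.2 kb in intron 3, and neither window held any of the strings. In Nfix, 2 of 3 lay upstream of the start used, inside a longer annotated form of the gene.

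Of Notch pathway genes 4 of 24 held peaks (span classes 1.52), each with 1. They were the ligand Jag1, 6.72 kb from its start, the receptors Notch2 (91.8 kb) and Notch3 (4.50 kb), and the nuclear co-activator Maml2 (61.7 kb). Of Wnt pathway genes 8 of 34 did (span classes 3.05). They included the co-receptor Lrp6 with 2 in intron 7, the nuclear effector Tcf7l2 with 2 at 139 and 184 kb, and the Groucho co-repressors Tle3 with 4 and Tle4 with 3. The Tle4 peaks lay at 31.4, 88.9 and 90.7 kb. Among the remaining Wnt hosts were Axin2, Lef1, Tcf7l1 and Wnt5a, with 1 each. Chromatin regulators gave 5 of 37 (span classes 4.40), among them Arid1a and Smarca2, which encode subunits of a chromatin remodelling complex, and Chd7 and Hdac5, with 1 each.

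Axon guidance genes had the highest share of the 14 lists, with 12 of 31 hosts (38.7%, 21.8 to 57.8%), where the span classes gave 4.32. The study had already reported axon guidance as enriched in the whole peak list. After Slit1 came the receptor Ephb2 with 4, at 18.9, 62.7, 133 and 137 kb. Epha7, another ephrin receptor, had 2 in intron 5, at 82.6 and 89.0 kb, the second 2086 bp wide. Ntn4, a secreted netrin, had 2 in intron 2. Cntn2, Efnb1, Efnb2, Epha4, Plxna2, Plxnd1, Rgma and Sema6a had 1 each. Neuronal cytoskeleton and migration genes gave 6 of 30 (span classes 2.47), with 2 each in Dcx, Gap43 and Kif5c. Gap43, a growth cone protein, had its pair at 71.2 and 84.8 kb in intron 2, and both windows held CAGCTG and GTTNCCA. Lrp8, a reelin receptor, had 1 peak, at 15.4 kb.

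Radial glia and progenitor markers gave 5 of 31 (span classes 2.04). Boc, a Sonic hedgehog co-receptor, had 3, all in intron 1, at 6.76, 20.3 and 28.1 kb, and the nearest to the start held an Nfi dimer. Fgfr1, an FGF receptor, had 2, and the cyclin Ccnd2, the kinase Cdk6 and the phosphatase Ptprz1 had 1 each. Of the Fgfr1 pair, 1 lay upstream of the start used. Receptor tyrosine kinase feedback genes gave 1 of 20 (span classes 1.53), Etv5, an ETS factor downstream of FGF signalling, with 2 peaks at 9.14 and 10.6 kb. Of the genes named in the study, Zfp608 held 3 peaks in intron 2, at 12.5, 27.9 and 37.8 kb, of which the first was 2778 bp wide, and Mn1 held 1, at 17.2 kb. These counts cover the gene bodies alone. The study counted peaks over wider regulatory domains, where Zfp608, the gene desert beside Mn1, and Tle3 were among the most enriched.

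Genes of other cell types were read the same way. Markers of interneurons and the ventral telencephalon gave 1 of 20 (span classes 0.239), Gad1, an enzyme of GABA synthesis. Its peak lay upstream of the start used, inside a longer annotated form of the gene. Vascular markers gave 3 of 19 (span classes 1.64), the endothelial adhesion gene Pecam1 with 2 and the pericyte genes Cspg4 and Pdgfrb with 1 each. Of the Pecam1 pair, 1 lay beyond the end of the transcript used. Markers of meninges and choroid plexus gave 1 of 20 (span classes 0.856), Dcn, a proteoglycan of fibroblasts. No marker of microglia and blood held a peak (0 of 19, which allows a share of up to 15.8% by a limit of 3 counts and 17.6% by the exact interval), no gene of liver, muscle and gut (0 of 29, up to 10.3 and 11.9%) and no ribosomal protein gene (0 of 79, up to 3.80 and 4.56%). For these the span classes gave 0.716, 0.982 and 0.148 hosts, so a count of 0 is little below what their lengths give.

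Several neocortical transcription factors held none of these peaks but had some in a neighbouring gene. After the hosts were seen, the peaks within 100 kb of the start of a listed neocortical factor other than the host were counted, and those described here were 14, near 6 factors. Sfxn5 held 4 that were 31.2 to 77.7 kb from Emx1, a homeodomain factor of dorsal progenitors. Alpk1 held 3 that were 65.3 to 72.8 kb from Neurog2, the proneural factor. Cyp7b1, an oxysterol hydroxylase, held 2 that were 27.5 and 90.7 kb from Bhlhe22. Cerkl, a ceramide kinase-like gene, held 2 that were 57.1 and 77.4 kb from Neurod1. Psmd14, a proteasome subunit, held 2 that were 6.28 and 53.2 kb from Tbr1, the T-box factor of layer 6 neurons, and Cdk12 held 1 that was 63.5 kb from Neurod2. No such count for other genes stands beside these 14 peaks, so whether they are many was not tested. Which gene any of these peaks acts on was not measured here. The study tested elements near Tbr1, Neurod2 and Bhlhe22, which it calls Bhlhb5, in transgenic embryos. It proposes Tbr1 and Bhlhe22 as the likely targets of the elements near them. Whether those elements are among these peaks was not examined.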

How the data were processed

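There was 1 p300 chromatin immunoprecipitation library and 1 input library from the dorsal telencephalic wall of mouse embryos. The authors aligned short reads to mm9 with ELAND, kept unique alignments, ran MACS (1.4 per the submitters' processing notes) on the p300 library with the input as control and no fitted shift model, and filtered the calls for doubtful mapping and for closeness to promoters (2.5 kb) and exons. The deposited list holds the chromosome, start, end and number of 6629 peaks and no score, so depth behind a peak is unknown; no data of the input library were analysed here.

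Peaks were placed by midpoint in the 22367 protein-coding genes of GENCODE vM1 on NCBIM37, the same assembly as mm9, with Python 3.11.15, numpy 2.4.6 and scipy 1.17.1; figures used matplotlib 3.10.9. Distances and intron numbers refer to the transcript with the longest coding sequence. Strings were searched on both strands in the 200 bases around each midpoint and in consecutive 200-base tiles of the host gene bodies. With 1 library, all results are descriptions, with exact Clopper-Pearson or Poisson 95% intervals. The placing of peaks and the string search were tested on simulated data: 3000 of 3000 made peaks and 200 of 200 planted matches for each string were recovered.

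Genes named were the 12 hosts with the most peaks, the 8 with the most per length among hosts with at least 3, hosts named in the paper, and up to 4 hosts of each of 14 gene lists; further hosts of the lists are named with their counts alone, and these and other names outside this rule were chosen after their values were seen. Genes with model or clone names were counted and not described, apart from 1 named for the widest peak. A few genes chosen by these criteria are not reported here. The peaks, lists and rules were chosen with earlier results of these data known. Alternatives changed the span limit, the placing of peaks, the genes and peaks counted, the transcript used and the sequence searched.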

Additional observations from a re-analysis of the deposited data

How the results depend on the processing

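No paired analysis was possible because there was 1 p300 library and 1 input library. The list has no score, so strictness could be changed through peak width alone, and reads behind a peak, mappability and the variation between embryos could not be examined. Of the strings, CAGGTG alone changed side against the tiles of the host genes when windows of 45 to 55% GC were counted, from a ratio of 1.10 to 0.878. Of the main results, 36 of 68 alternative values moved by less than their counting error (or by less than 1.5 times, for the number of peaks). With a span limit of 100 kb there were 624 peaks, in 2.49% of genes, with 2 or more in 18.9% of hosts, 1.56 peaks per Mb, 36% of intronic peaks in intron 1, a median of 22.5 kb from the start, a width of 978 bp and a GC content of 51.0%. With a limit of 300 kb the hosts were 5.05% of genes, 29.6% had 2 or more, and there were 2.40 peaks per Mb, 29.9% in intron 1, a median of 49.1 kb and 48.6% GC. The peaks no narrower than the list's median numbered 596, in 2.13% of genes, at 1.01 per Mb, with a width of 1242 bp, 49.0% GC and CATCTG in 32.6% of windows. Joining peaks under 5 kb apart gave 19.4% of hosts with 2 or more, 1.96 per Mb, a width of 1018 bp and 48.9% GC. Leaving out peaks at a GENCODE exon or start gave 3.84% of genes and 1.92 per Mb, and leaving out model or clone names gave 4.78% of genes. The lowest intron number over all coding transcripts put 41.3% in intron 1, and the nearest start of any transcript of the host lay at a median of 18.3 kb. CATCTG was in 23.8% of the middle 100 bases, in 77.2% of whole peaks and in 45.7% of windows of 45 to 55% GC, the last chosen after the data were seen. The causes of these moves were not tested.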

Other observations

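Strings that joined an E-box to a Meis string were looked at after the overlaps above were seen. TGACAGATG, which reads CATCTGTCA on the other strand, was in 23 of the 1270 windows (1.81%, interval 1.15 to 2.71%), in 2.04% of all 6629 peaks and in 0.310% of tiles of the host genes, a ratio of 5.85. TGACAGCTG, the same join with the other E-box, was in 26 windows (2.05%, interval 1.34 to 2.99%), in 1.87% of all peaks and in 0.355% of tiles, a ratio of 5.76. The single strings had lower ratios, of 2.5 for CATCTG, 2.94 for CAGCTG and 1.65 for TGACAG. Each joined string was rare, and the 2 counts were chosen for their size.

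Some families of related genes were also read after the hosts were known, of which Nfi, Ebf and Foxp have genes on both sides of the 200 kb limit. In the Nfi family the short genes Nfic and Nfix held 4 and 3 peaks, and the long genes Nfia (429 kb) and Nfib (416 kb) held 6 and 15. Among Ebf factors, Ebf2 (196 kb), Ebf3 (121 kb) and Ebf4 (75.3 kb) held 4, 6 and 1, and Ebf1 (391 kb) held 5. Of the forkhead genes Foxp4 (57.5 kb) held 4 and Foxp3, a factor of regulatory T cells, none, while Foxp1 (341 kb) and Foxp2 (541 kb) held 2 and 5. Of the Groucho genes Tle3 (46.1 kb) and Tle4 (150 kb) held 4 and 3, and Tle1 (83.8 kb) and Tle2 (16.3 kb) held none. Among coronins, actin-binding proteins, Coro2b (118 kb) held 4, Coro1c (66.3 kb) 3 and Coro2a (65.3 kb) 1, and Coro1a, Coro1b, Coro6 and Coro7 held none.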
